A study of Mus musculus with 16 samples.

Results

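Complement, coagulation and fibrinolysis are 3 linked protease cascades of blood and tissue fluid. The genes described here are 34 of their components, 18 of complement and 16 of coagulation and fibrinolysis. They were chosen by name, with earlier results of these data known. Probes were assigned to them through the transcript accession on the array, by the current gene symbol or an older synonym. Of the 34 genes, 33 had a probe, out of 19096 named genes on the array, and all 33 passed the filter on dim signals that 16675 named genes passed. C7, a terminal complement component, had no matched probe and is not analysed here, and C1s was matched as C1s1.

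Adipose tissue of female mice was hybridised to 16 one-colour arrays in 4 groups. CTL_WAT and CTL_BAT are white and brown adipose tissue of control mice, which the series' design text calls wild-type. AdipoKO_WAT and AdipoKO_BAT are the same tissues of mice in which the glucocorticoid receptor (GR, encoded by Nr3c1) was knocked out specifically in adipose tissue. Each group had 4 samples, described as biological replicates. The promoter that drove the deletion, the deleted part of the gene, the age, the strain and the site of the white fat are not given in the sources used here.

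Complement is a set of plasma proteins that tag and lyse targets. C1q recognises antibody complexes and dying cells, the proteases C1r and C1s cut C4 and C2, and the resulting enzyme cuts C3, the step at which the classical and alternative pathways meet. Coagulation starts when tissue factor meets factor VII, passes through factor X to thrombin and ends in cross-linked fibrin, which plasmin, made by the plasminogen activators, dissolves again. Liver makes most of these plasma proteins, but fat tissue also makes several: adipocytes secrete C3 and other alternative pathway components, macrophages make C1q, and endothelium carries thrombomodulin and the protein C receptor. Glucocorticoids act through GR, which binds DNA as a pair on an inverted repeat of a 6-base half-site.

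A level is the log2 of a probe's processed signal minus the 75th percentile of that array, so 0 is the signal that 75% of the probes stay below. Each group held its own position on all 4 slides, so position and group cannot be told apart. The arrays of AdipoKO_WAT 1 and 2 differed by less than the noise between repeated spots, at 0.965 times that noise, while any other pair of arrays differed by 1.86 times or more. Their mean counts as 1 sample, AdipoKO_WAT 1-2, leaving n = 3 there, n = 4 elsewhere and 15 samples in all. Nr3c1 was 2.19 ± 0.28 (SD) in CTL_WAT and 1.53 ± 0.15 in AdipoKO_WAT, or 63.4% of control. In brown fat it was 2.49 ± 0.16 and 1.45 ± 0.21, or 48.8% (two-sided exact permutation p = 0.0286 in each depot, the smallest possible). Its adjusted p in the fit across all features was 0.210 and 0.0814. In white fat the mean of the gene's probes gave a log2 difference of -0.25 (adjusted p = 0.548), against -0.66 for the brightest probe. White fat samples differed in content. AdipoKO_WAT 4 stood apart from the other 2 knockouts: its adipocyte marker level, the median over 12 genes of the deviation from each gene's mean over samples, was 0.78 against -2.30 and -1.34, and its B cell level was -1.29 against 5.17 and 4.88. CTL_WAT 1 and 4 held intestinal transcripts (6.501 and 5.18, against -1.58 and 0.60 in CTL_WAT 2 and 3).

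Between depots the genes were mostly lower in brown fat, and between genotypes 1 gene, F10, passed the test. Since the genes were chosen with earlier results of these data known, the shares of all features describe and are not an independent test. In controls 24 of 33 genes were lower in BAT than in WAT and 0 were higher, where 14.3% of the 25105 features tested were lower and 19.1% higher (limma, adjusted p under 0.05). In knockouts 17 were lower and 1, Cd59a, was higher, against 13.9% and 16.7% of all features. The median log2 difference of the 33 genes, BAT minus WAT, was -1.82 in controls and -1.05 in knockouts, where all features had medians of 0.11 and -0.090. In white fat, knockout against control, 1 gene fell and 0 rose, against 0.0597% of all features called in either direction. There 9 of 33, or 27.3%, had an unadjusted p under 0.05, where 17.9% of all features did. The difference was above 0 for 8 of the 33 genes and below 0 for 25, where 66.5% of all features lay above 0. In brown fat 0 of 33 were called, against 0.0159% of all features. At an unadjusted p under 0.05 there were 0 of 33 in brown fat, where 13.1% of all features were. The difference between the knockout effects of the depots was called for 0 of 33 genes, against 0.00398% of all features. At an unadjusted p under 0.05 it had 10 of the 33, or 30.3%, where 10.4% of all features were. The depot and white fat knockout comparisons share samples. Depot differences were common: 42.5% of all features had an unadjusted p under 0.05 in controls and 40.3% in knockouts. For the 33 genes these shares were 78.8% and 57.6%. The share of all features whose white and brown fat samples did not overlap is not given here.

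**Figure D1:**
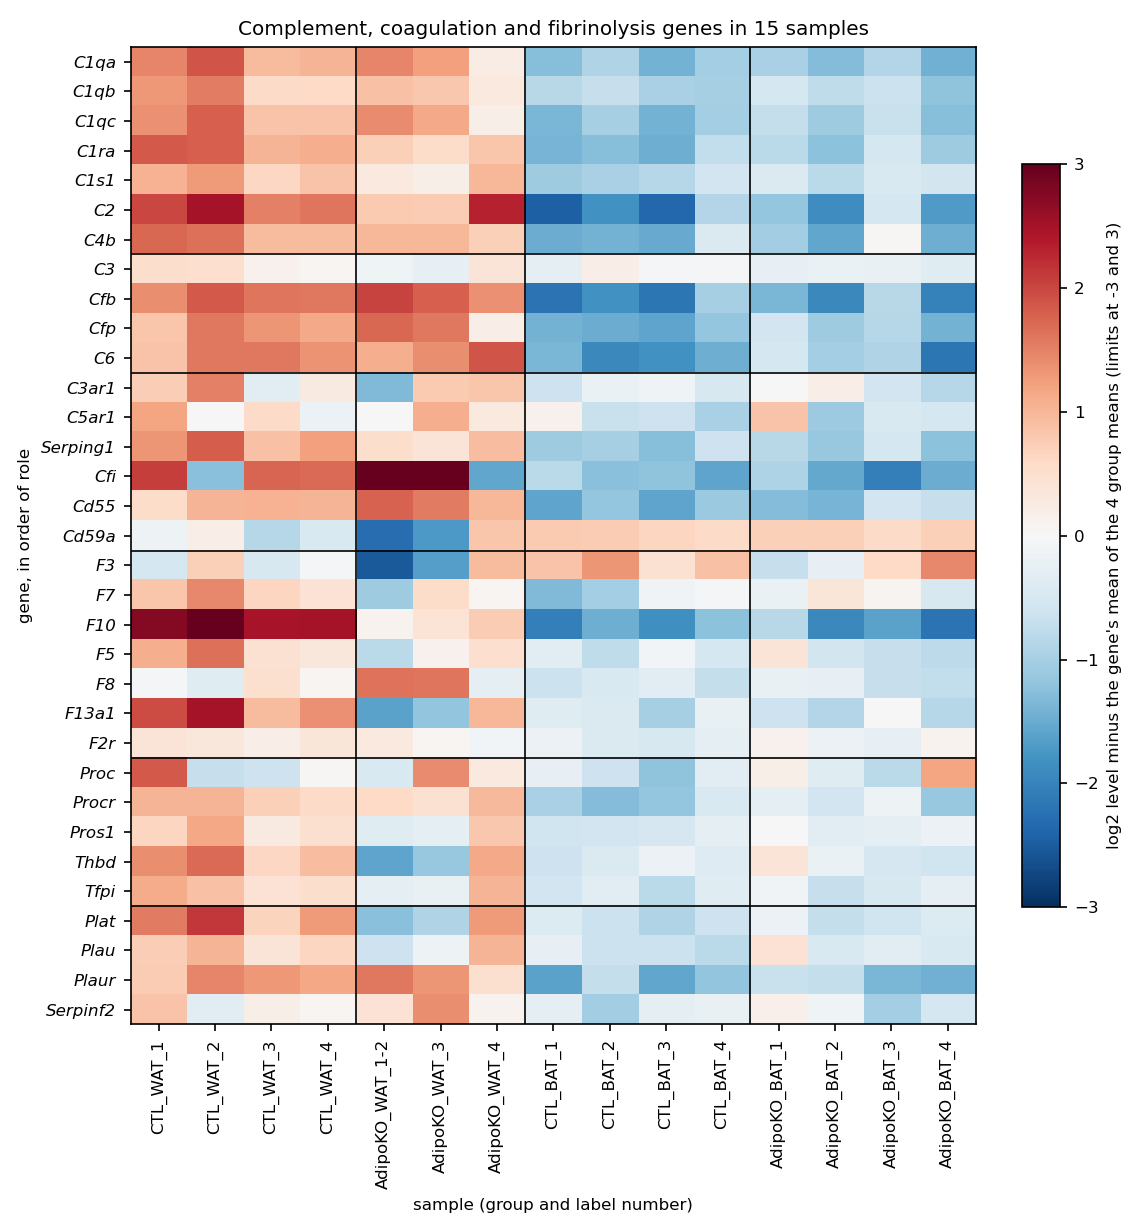
Heat map of the 33 genes (rows, in order of role, lines between roles) in 15 samples (columns, lines between groups). Colour is the log2 level minus the gene's mean of the 4 group means, limited to the range from -3 to 3. Most rows are red in white fat and blue in brown fat, the Cd59a row is bluest in AdipoKO_WAT 1-2 and 3, and the F10 row is darkest red in the 4 CTL_WAT samples.

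The recognition and classical pathway genes were lower in brown fat without exception, against 14.3% of all features in controls and 13.9% in knockouts. The counts were 7 of 7 in controls, with a median difference of -2.48, and 7 of 7 in knockouts, with a median of -1.85. The 3 C1q chain genes lie next to each other on chromosome 4 and form 1 protein. C1qa, the A chain, was at 2.93, 3.35, 2.42 and 2.48 in CTL_WAT 1 to 4 and at 2.94, 2.71 and 1.69 in AdipoKO_WAT 1-2, 3 and 4. In CTL_BAT it was at 0.18, 0.56, 0.054 and 0.46, and in AdipoKO_BAT at 0.49, 0.17, 0.58 and 0.014. No white fat sample overlapped a brown fat sample, and the depot difference was -2.48 ± 0.28 (SE) in controls and -2.13 ± 0.31 (SE) in knockouts. The B and C chains had depot differences of -1.88 and -2.42 in controls and of -1.44 and -1.85 in knockouts. All 3 chains were lowest among white fat samples in AdipoKO_WAT 4, with C1qa at 1.69, C1qb at 1.06 and C1qc at 2.51.

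Promoter sequences are shown for C1qb and C1qc, neighbours that had like depot differences, because the GR half-site AGAACA (either strand, so also TGTTCT) occurs in both. Each runs 5′ to 3′ on the gene's strand from 250 bases before to 50 bases after a RefSeq start of the gene. The build is GRCm38.p6, and the half-sites are in capitals. C1qb is at chr4:136886151-136886450 and C1qc at chr4:136892865-136893164, both on the minus strand.
C1qb: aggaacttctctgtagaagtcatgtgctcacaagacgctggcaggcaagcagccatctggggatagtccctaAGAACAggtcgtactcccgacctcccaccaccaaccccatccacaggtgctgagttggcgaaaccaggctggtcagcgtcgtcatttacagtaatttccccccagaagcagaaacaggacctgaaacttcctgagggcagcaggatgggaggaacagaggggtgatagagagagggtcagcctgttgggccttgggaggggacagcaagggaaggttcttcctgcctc
C1qc: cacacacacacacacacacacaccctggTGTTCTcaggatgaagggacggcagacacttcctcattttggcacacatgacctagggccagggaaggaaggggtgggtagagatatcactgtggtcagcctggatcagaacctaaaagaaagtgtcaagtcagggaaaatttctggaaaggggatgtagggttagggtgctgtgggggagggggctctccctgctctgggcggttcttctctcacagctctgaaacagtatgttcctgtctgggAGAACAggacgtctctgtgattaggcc
The C1qb match lay 178 to 173 bases before the start, and those of C1qc 222 to 217 bases before it and at bases 24 to 29 after it. The half-site was in 7 of the 27 promoters of the genes described here, or 25.9%. It was in 19.0% of the 32851 promoters of this length in the table. Of the 34 genes, 24 had promoters there, and 6 of them held it: C1qb, C1qc, C1s1, F10, F8 and Serpinf2. C1qa, the gene of the remaining C1q chain, is not among these 6. The full inverted repeat, the half-site and its reverse complement with 3 bases between, was in 3 promoters, or 0.00913%, and in none of these genes. A match is a description of letters, not of GR binding.

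C1r and C1s, the proteases of the C1 complex, are also encoded by neighbouring genes. C1ra was at 3.62, 3.57, 2.80 and 2.86 in CTL_WAT and at 2.48, 2.32 and 2.60 in AdipoKO_WAT. The knockout samples were all below the controls, and C1ra and F10 were the 2 of 33 genes with such a separation, against 1.23% of all features; 0 were separated upwards, against 6.47%. The C1ra difference of -0.74 ± 0.26 (SE) did not pass (adjusted p = 0.24). In CTL_BAT it was at 0.38, 0.49, 0.30 and 1.03 and in AdipoKO_BAT at 0.96, 0.53, 1.24 and 0.71, below every white fat sample. The depot difference was -2.66 ± 0.24 (SE) in controls and -1.61 ± 0.26 (SE) in knockouts, or 6.34-fold and 3.04-fold lower in brown fat.

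C1s1 was at 3.81, 4.05, 3.38 and 3.62 in CTL_WAT and at 3.05, 2.94 and 3.75 in AdipoKO_WAT, where sample 4 lay among the controls and the other 2 below them. It was at 1.70, 1.79, 1.90 and 2.19 in CTL_BAT and at 2.34, 1.96, 2.31 and 2.20 in AdipoKO_BAT. Its depot differences were -1.82 ± 0.21 (SE) and -1.05 ± 0.23 (SE). C1rb and C1s2, near-identical copies of these genes, had their own probes, and whether the C1ra and C1s1 probes also read them was not tested.

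C2, the protease subunit of the classical C3 convertase, had the widest depot difference of these 7 genes. It was at 5.41, 5.88, 4.91 and 5.01 in CTL_WAT and at 4.17, 4.16 and 5.71 in AdipoKO_WAT. In CTL_BAT it was at 0.95, 1.58, 1.05 and 2.52, and in AdipoKO_BAT at 2.25, 1.53, 2.86 and 1.70. The brown fat samples were all lower, by 13.7-fold in controls and 6.04-fold in knockouts. In white fat, knockouts 1-2 and 3 were below the controls and knockout 4 was within them, and the difference of -0.62 ± 0.47 (SE) did not pass. C4b, whose product is the other subunit, had depot differences of -2.53 and -1.92, with the limit that its copy C4a may share the probe.

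Of the 4 measured genes of C3, the alternative pathway and the terminal components, 3 were lower in brown fat in both genotypes. C3 was not called in either. Of all features, 14.3% were lower in controls and 13.9% in knockouts. C3, the component on which all pathways converge, was at 8.10, 8.08, 7.71 and 7.63 in CTL_WAT and at 7.44, 7.33 and 7.97 in AdipoKO_WAT. It was at 7.28, 7.77, 7.51 and 7.53 in CTL_BAT and at 7.33, 7.38, 7.36 and 7.21 in AdipoKO_BAT. The depots overlapped, with differences of -0.36 ± 0.18 (SE) in controls (adjusted p = 0.159) and -0.26 ± 0.20 (SE) in knockouts (adjusted p = 0.37). Whether C3 differs from its partners in this was not tested. The result for C3 depended on the processing: 1 of 29 alternatives called it lower in controls (limma, adjusted p = 4.9e-05). In knockouts 1 of 29 did as well (limma, adjusted p = 7.4e-04). Over the alternatives its depot difference ranged from -1.19 to -0.21 in controls and from -0.94 to -0.065 in knockouts.

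Factor B, the protease of the alternative pathway convertase, is encoded by Cfb, the neighbour of C2. Cfb was at 4.56, 5.004, 4.78 and 4.74 in CTL_WAT and at 5.19, 4.95 and 4.53 in AdipoKO_WAT. It was at 0.95, 1.34, 0.998 and 2.15 in CTL_BAT and at 1.80, 1.22, 2.32 and 1.14 in AdipoKO_BAT. All white fat samples were between 4.53 and 5.19 and all brown fat samples between 0.95 and 2.32. The difference was -3.41 ± 0.30 (SE) in controls, or 10.6-fold (adjusted p = 3.1e-06), and -3.27 ± 0.33 (SE) in knockouts, or 9.62-fold. The knockout comparisons gave 0.12 in white and 0.26 in brown fat and were not called.

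Properdin, the stabiliser of that convertase, is encoded by Cfp, which was at 3.47, 4.22, 3.95 and 3.75 in CTL_WAT and at 4.34, 4.21 and 2.83 in AdipoKO_WAT. Knockout 4 was the lowest white fat sample, and knockouts 1-2 and 3 were among the highest. In brown fat Cfp was at 1.20, 1.14, 1.04 and 1.47 in CTL_BAT and at 2.06, 1.56, 1.78 and 1.21 in AdipoKO_BAT, below every white fat sample. The depot differences were -2.63 ± 0.31 (SE) and -2.14 ± 0.33 (SE).

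C6, which joins the membrane attack complex, was at -1.68, -0.94, -0.94 and -1.18 in CTL_WAT and at -1.44, -1.15 and -0.65 in AdipoKO_WAT. It was at -3.90, -4.47, -4.34 and -3.99 in CTL_BAT and at -3.07, -3.55, -3.44 and -4.70 in AdipoKO_BAT, where 3 of 4 arrays were well above background. Again the depots were separate, with differences of -2.99 ± 0.32 (SE) and -2.61 ± 0.34 (SE) that were -1.79 and -1.40, still called, with normexp background correction. The knockout differences of 0.11 and 0.49 were not called.

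Among the 6 complement receptors and inhibitors, Serping1 and Cd55 were lower in brown fat in both genotypes, Cfi was lower in knockouts, Cd59a was higher in knockouts, and the 2 anaphylatoxin receptors were not called. Serping1 encodes C1 inhibitor, which also blocks the contact proteases. It was at 3.91, 4.40, 3.45 and 3.81 in CTL_WAT and at 3.12, 2.96 and 3.51 in AdipoKO_WAT. It was at 1.52, 1.59, 1.30 and 1.97 in CTL_BAT and at 1.75, 1.44, 2.05 and 1.34 in AdipoKO_BAT. The depot difference was -2.30 ± 0.24 (SE) in controls and -1.55 ± 0.26 (SE) in knockouts. In white fat the knockout difference of -0.69 ± 0.26 (SE) was not called (adjusted p = 0.245): knockouts 1-2 and 3 lay below all controls, and knockout 4 lay within them.

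Cd55 encodes decay-accelerating factor, a membrane protein that dissociates convertases. In white fat CTL_WAT was at 0.53, 0.98, 1.02 and 0.98 and AdipoKO_WAT at 1.75, 1.52 and 0.97, a difference of 0.54 ± 0.26 (SE) that was not called. CTL_BAT was at -1.61, -1.19, -1.60 and -1.14 and AdipoKO_BAT at -1.32, -1.42, -0.61 and -0.72. The brown fat samples were all below the white fat samples, with differences of -2.26 ± 0.24 (SE) in controls and -2.43 ± 0.26 (SE) in knockouts.

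Cd59a encodes an inhibitor of the membrane attack complex and was the gene of the 33 that was called higher in brown fat. CTL_WAT was at 3.22, 3.57, 2.52 and 2.92 and AdipoKO_WAT at 1.10, 1.65 and 4.21. CTL_BAT was at 4.16, 4.15, 4.02 and 3.96 and AdipoKO_BAT at 4.09, 4.09, 3.96 and 4.09. The 8 brown fat samples lay within 3.96 to 4.16 while the 3 white fat knockouts ranged from 1.10 to 4.21. The difference in knockouts was 1.73 ± 0.53 (SE) (adjusted p = 0.0235), which was lost without AdipoKO_WAT 1-2 (1.12) or AdipoKO_WAT 3 (1.40), with normexp background correction (1.59, adjusted p = 0.0585) and with only the groups compared (adjusted p = 0.126). In controls it was 1.02 ± 0.49 (SE) (adjusted p = 0.13), with every brown fat control above every white fat control. A second Cd59a probe gave depot differences of 1.09 and 1.85. Cd59b, a related gene, had its own probe, and whether the Cd59a probes also read Cd59b was not tested.

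Cfi encodes factor I, the protease that inactivates cut C3 and C4. CTL_WAT was at -2.32, -5.65, -2.66 and -2.70 and AdipoKO_WAT at -1.11, -1.22 and -5.95. CTL_WAT 2 and AdipoKO_WAT 4 were far below the other 5 white fat samples. On all 8 brown fat arrays the probe was not well above background, so a fold is a bound: at least 3.52-fold lower in brown fat in knockouts (adjusted p = 0.0303) and at least 3.06-fold in controls (adjusted p = 0.0764). The knockout call was lost without AdipoKO_WAT 1-2 or 3 (-2.31 and -2.37), without AdipoKO_BAT 2, 3 or 4, in a fit of the groups compared only (adjusted p = 0.0982) and with normexp background correction, which gave a fitted difference of -0.90 (adjusted p = 0.323) in place of -3.14. Such bounds set the group mean of the brighter tissue against the dimmest signal counted as well above background on each array of the other.

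C5ar1, the receptor for the C5a fragment, was at -3.59, -4.78, -4.20 and -4.95 in CTL_WAT, at -4.77, -3.68 and -4.47 in AdipoKO_WAT, at -4.65, -5.44, -5.40 and -5.73 in CTL_BAT and at -3.92, -5.85, -5.22 and -5.28 in AdipoKO_BAT. The groups overlapped, and only 1 of 4 arrays in each brown fat group was well above background. C3ar1, the C3a receptor, was well above background on 3 of 4 CTL_BAT and 1 of 4 AdipoKO_BAT arrays, with group means from -4.50 to -3.59. Neither was called in any comparison, and for these probes little more than the detection in white fat can be read.

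**Figure D2:**
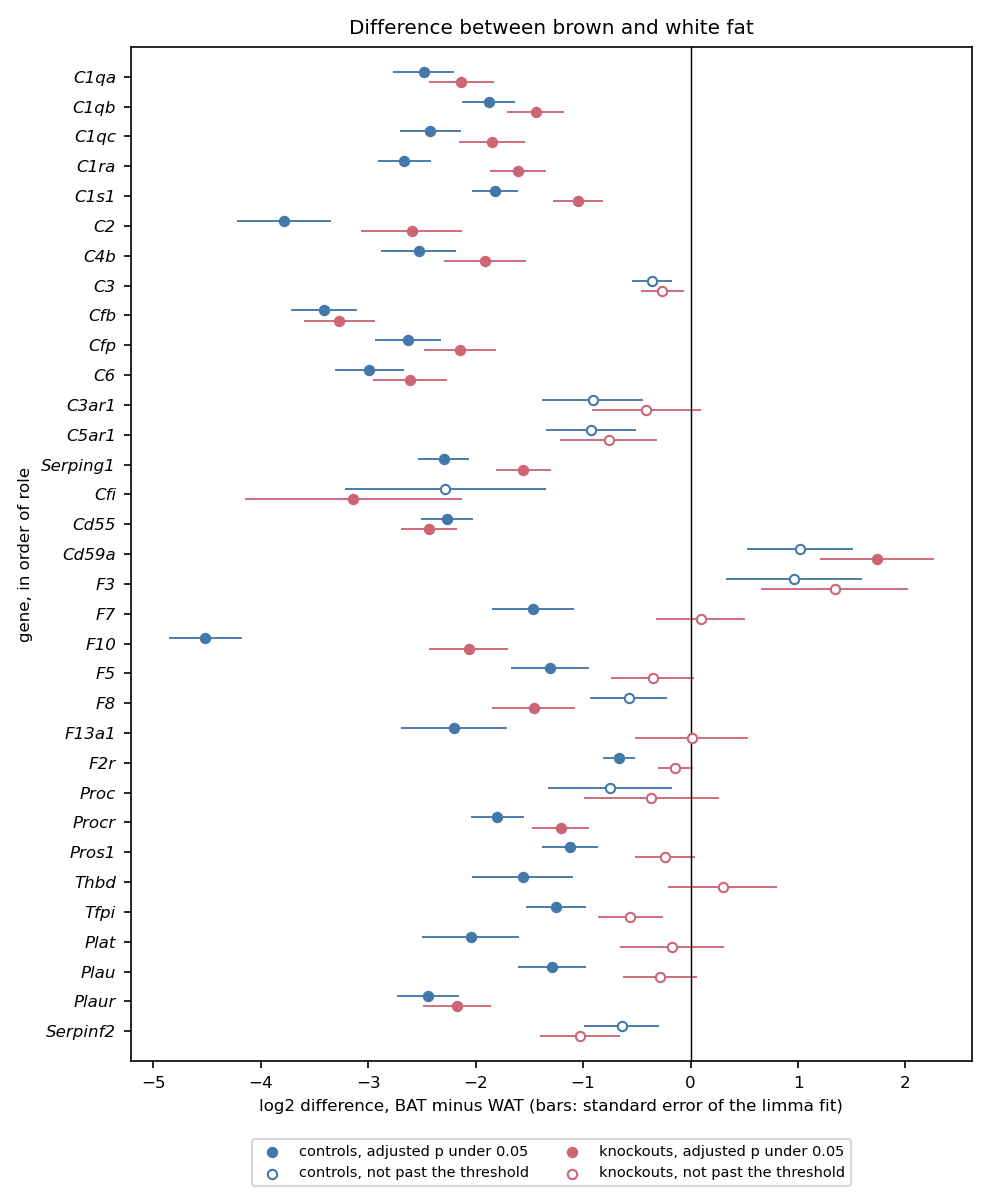
Log2 difference, BAT minus WAT, for each gene, in controls (blue) and knockouts (red), with the standard error of the limma fit. Filled points passed the adjusted threshold: all 7 recognition genes are filled on the left in both genotypes, while F13a1, Plat and Thbd are filled in controls and lie near 0 in knockouts.

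The coagulation genes held the 1 call of the knockout comparisons. F10 encodes factor X, the protease that converts prothrombin to thrombin. It was at -0.14, 0.85, -0.43 and -0.40 in CTL_WAT 1 to 4 and at -2.80, -2.497 and -2.15 in AdipoKO_WAT 1-2, 3 and 4. The 3 knockouts lay close together and all below the controls, with sample 4 near the other 2. The mean fell from -0.031 ± 0.60 (SD, n = 4) to -2.48 ± 0.33 (SD, n = 3), a difference of -2.45 ± 0.37 (SE) or 5.47-fold lower (limma, adjusted p = 0.0249). Within the 4 slides the difference was -2.36, -3.55, -1.72 and -2.50; slides 2 and 4 hold the arrays of AdipoKO_WAT 2 and 1, so these are 4 values from 3 knockout samples. The call was lost with slide as a block (adjusted p = 0.107), with normexp background correction (-1.57, adjusted p = 0.250) and in a fit of the white fat groups only (adjusted p = 0.583). It was also lost when CTL_WAT 1, CTL_WAT 4, AdipoKO_WAT 1-2 or AdipoKO_WAT 3 was left out (adjusted p = 0.0726, 0.0536, 0.119 and 0.155), with the difference between -2.57 and -2.29.

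In brown fat F10 was at -4.94, -4.36, -4.75 and -4.13 in CTL_BAT and at -3.72, -4.83, -4.51 and -5.12 in AdipoKO_BAT, where 2 of 4 arrays were well above background. The knockout and control groups overlapped there. Every brown fat sample was below every white fat sample. The depot difference was -4.51 ± 0.34 (SE) in controls, or 22.8-fold (adjusted p = 8.9e-07), and -2.06 ± 0.37 (SE) in knockouts, or 4.18-fold. With normexp background correction they were -2.70, or 6.48-fold, in controls and -0.62 in knockouts, where the call was lost. The difference between the knockout effects of the depots was 2.45 ± 0.501 (SE) and was not called (limma, adjusted p = 0.347).

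F7, the gene of factor VII, which with tissue factor activates factor X, lies directly beside F10 on chromosome 8. It was at -3.22, -2.62, -3.41 and -3.61 in CTL_WAT and at -5.12, -3.51 and -3.98 in AdipoKO_WAT. In brown fat it was at -5.38, -5.08, -4.15 and -4.10 in CTL_BAT and at -4.25, -3.69, -3.96 and -4.54 in AdipoKO_BAT, with 2 of 4 arrays well above background in each group. Its white fat groups overlapped, and the knockout difference of -0.99 ± 0.41 (SE) was not called (adjusted p = 0.26). Whether F10 and F7 differ in the knockout comparison was not tested, nor was any part of the half-site in the F10 call. This pair was chosen with the test results known. The promoters of these neighbours are shown, that of F10 with the half-site and that of F7 without. They run 5′ to 3′ on the plus strand, F10 at chr8:13037058-13037357 and F7 at chr8:13025784-13026083 (RefSeq, GRCm38.p6), with the half-site in capitals.
F10: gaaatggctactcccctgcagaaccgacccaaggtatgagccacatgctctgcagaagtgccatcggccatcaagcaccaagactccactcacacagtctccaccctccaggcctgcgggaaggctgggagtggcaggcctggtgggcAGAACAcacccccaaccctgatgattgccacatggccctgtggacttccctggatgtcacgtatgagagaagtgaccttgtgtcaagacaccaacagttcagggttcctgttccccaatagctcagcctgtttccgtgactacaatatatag
F7: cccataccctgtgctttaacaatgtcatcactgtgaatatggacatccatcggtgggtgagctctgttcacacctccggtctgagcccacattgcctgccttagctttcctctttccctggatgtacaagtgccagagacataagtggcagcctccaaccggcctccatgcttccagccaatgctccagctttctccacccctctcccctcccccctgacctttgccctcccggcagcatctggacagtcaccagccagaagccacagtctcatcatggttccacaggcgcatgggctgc
F10 held AGAACA 102 to 97 bases before its start, and F7 held no match in its 300 bases. The F7 window surrounds a start inside the gene, whose span begins at chr8:13025506. Bases before that span were not searched for F7, so the 2 windows are not alike.

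F13a1 encodes the A chain of factor XIII, which cross-links fibrin and is also made by tissue macrophages. CTL_WAT was at 3.42, 3.94, 2.40 and 2.83 and AdipoKO_WAT at -0.16, 0.26 and 2.46. Knockouts 1-2 and 3 were far below all controls, and knockout 4 was within the control range. The difference of -2.30 ± 0.53 (SE) was not called (adjusted p = 0.148). CTL_BAT was at 1.08, 1.02, 0.46 and 1.23 and AdipoKO_BAT at 0.84, 0.56, 1.46 and 0.59. Brown fat was 4.6-fold lower in controls (adjusted p = 0.00342), and in knockouts the difference was 0.0095 ± 0.53 (SE).

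F2r encodes the thrombin receptor PAR1. It was at 1.24, 1.20, 1.05 and 1.22 in CTL_WAT, at 1.15, 0.93 and 0.77 in AdipoKO_WAT, at 0.68, 0.43, 0.38 and 0.56 in CTL_BAT and at 0.99, 0.68, 0.61 and 0.96 in AdipoKO_BAT. Its spread within groups was small, and its depot difference in controls of -0.67 ± 0.15 (SE) was called though it was only 1.59-fold. That call was lost with median scaling (-0.51, adjusted p = 0.0840). In brown fat the knockout difference of 0.30 ± 0.15 (SE) had the smallest p of the 33 genes and was not called (adjusted p = 0.424).

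Of the other coagulation genes, F5, the cofactor of factor X, was lower in brown fat in controls (-1.31 ± 0.36 SE) and F8, the cofactor of factor IX, in knockouts (-1.46 ± 0.39 SE, lost without AdipoKO_WAT 1-2 or 3, at -1.14 each). The F8 call was also lost with normexp background correction (-0.87, adjusted p = 0.147) and with only the groups compared (adjusted p = 0.0904). F8 was at -1.95, -2.27, -1.44 and -1.87 in CTL_WAT and at -0.29, -0.30 and -2.21 in AdipoKO_WAT: the first 2 knockout samples were higher than all others and the last was not. F3, tissue factor, was at -1.12, -0.27 and 2.35 in AdipoKO_WAT, a range wider than that of the 4 controls (0.87 to 2.11), and was called in no comparison.

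Of the 5 anticoagulant genes, 4 were lower in brown fat in controls and Procr alone also in knockouts. The shares of all features lower were 14.3% and 13.9%. Thbd encodes thrombomodulin, the endothelial receptor that turns thrombin towards protein C. CTL_WAT was at 4.02, 4.33, 3.24 and 3.54 and AdipoKO_WAT at 1.04, 1.496 and 3.77. CTL_BAT was at 1.998, 2.19, 2.46 and 2.24 and AdipoKO_BAT at 3.01, 2.42, 2.13 and 2.04. As for F13a1, knockouts 1-2 and 3 were below every control, and knockout 4 was among them. The white fat difference of -1.68 ± 0.51 (SE) was not called (adjusted p = 0.215). The depot difference was -1.56 ± 0.47 (SE) in controls and 0.30 ± 0.51 (SE) in knockouts, the former called but lost without CTL_WAT 2 (-1.38, adjusted p = 0.0543) or CTL_BAT 1 (-1.49, adjusted p = 0.0516), and without both CTL_WAT samples with intestinal transcripts (-1.56, adjusted p = 0.0946).

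Procr, the protein C receptor, was at 2.33, 2.31, 2.01 and 1.89 in CTL_WAT and at 1.91, 1.75 and 2.28 in AdipoKO_WAT. It was at 0.33, 0.015, 0.15 and 0.85 in CTL_BAT and at 1.02, 0.74, 1.16 and 0.17 in AdipoKO_BAT. All 7 white fat samples were above all 8 brown fat samples, with differences of -1.80 ± 0.25 (SE) in controls and -1.21 ± 0.26 (SE) in knockouts, and the genotypes overlapped in each depot.

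Pros1, protein S, the cofactor of activated protein C, was at 1.92, 2.43, 1.54 and 1.77 in CTL_WAT and at 0.91, 0.99 and 2.08 in AdipoKO_WAT. It was at 0.69, 0.70, 0.78 and 1.001 in CTL_BAT and at 1.29, 0.94, 1.01 and 1.11 in AdipoKO_BAT. The white fat knockouts were again 2 low and 1 within the controls, a difference of -0.59 ± 0.28 (SE) that was not called. Its depot difference in controls was -1.12 ± 0.26 (SE), and that of Tfpi, the inhibitor of the tissue factor complex, was -1.25 ± 0.28 (SE). The 3 Tfpi probes gave -1.25, -0.64 and -0.32, the first being the brightest and the one tested. Proc, protein C itself, was dim: 1 of 4 CTL_BAT and 2 of 4 AdipoKO_BAT arrays were well above background, and it was not called.

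**Figure D3:**
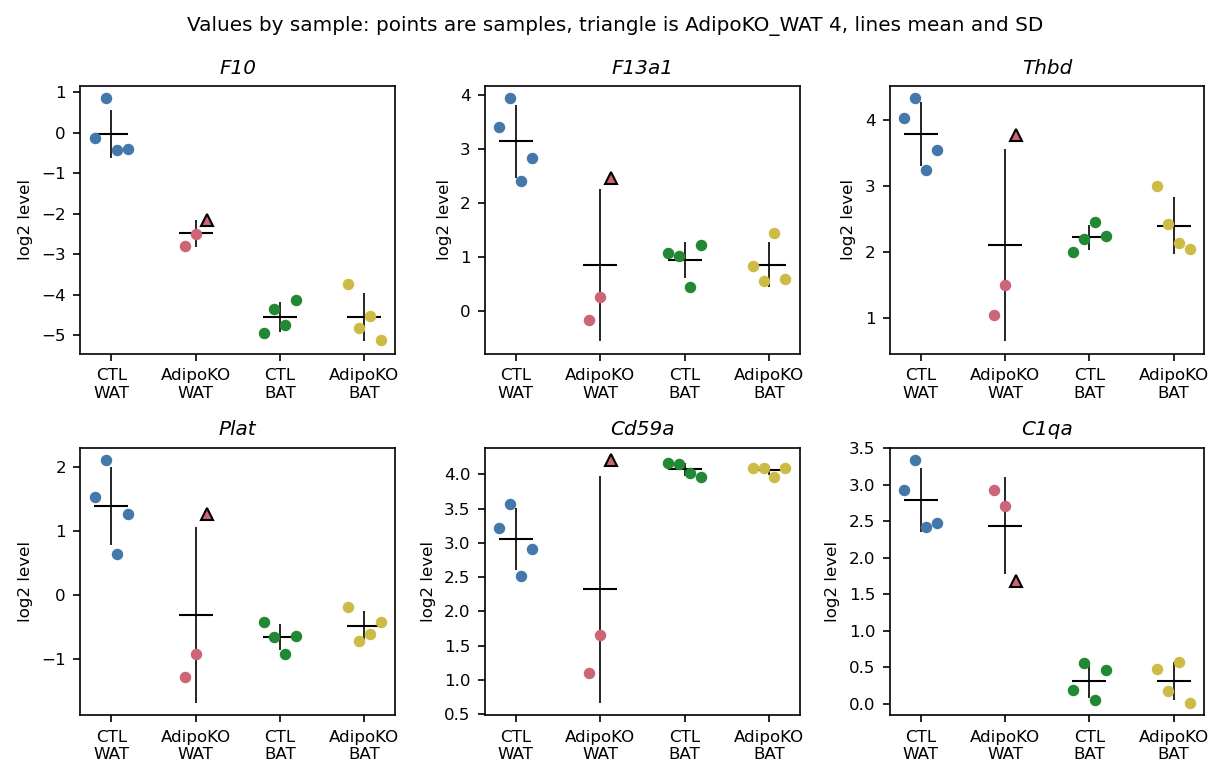
Log2 level by sample for F10, F13a1, Thbd, Plat, Cd59a and C1qa. Points are samples in 4 groups, the triangle is AdipoKO_WAT 4, and lines are the mean and SD. The F10 knockout samples are together below the controls, whereas for F13a1, Thbd, Plat and Cd59a the triangle is at or above the lower controls and the other 2 knockouts are below.

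Of the 4 fibrinolysis genes, 3 were lower in brown fat in controls and 1, Plaur, in knockouts, against 14.3% and 13.9% of all features. Plat encodes tissue plasminogen activator. CTL_WAT was at 1.54, 2.11, 0.64 and 1.27 and AdipoKO_WAT at -1.27, -0.91 and 1.26. CTL_BAT was at -0.42, -0.66, -0.91 and -0.64 and AdipoKO_BAT at -0.18, -0.72, -0.60 and -0.41. The white fat difference of -1.69 ± 0.49 (SE) was not called (adjusted p = 0.208), with knockout 4 within the controls, and a second probe gave -1.65. Brown fat was 4.13-fold lower in controls.

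Plau encodes urokinase, the other activator, and was at -2.59, -2.31, -2.95 and -2.69 in CTL_WAT and at -3.95, -3.497 and -2.32 in AdipoKO_WAT. It was at -3.60, -3.97, -3.98 and -4.16 in CTL_BAT and at -2.90, -3.80, -3.67 and -3.79 in AdipoKO_BAT. The depot difference in controls was -1.29 ± 0.32 (SE) and was called, while the knockout comparisons were not called.

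Plaur, the urokinase receptor, was at 0.22, 0.93, 0.76 and 0.63 in CTL_WAT and at 1.04, 0.78 and -0.049 in AdipoKO_WAT. It was at -2.14, -1.26, -2.11 and -1.73 in CTL_BAT and at -1.20, -1.24, -1.90 and -1.97 in AdipoKO_BAT. The depots did not overlap in either genotype, with differences of -2.44 ± 0.29 (SE) and -2.17 ± 0.32 (SE), the latter -1.56 and still called with normexp background correction. Serpinf2, the plasmin inhibitor alpha-2-antiplasmin, was dim (group means -4.75 to -3.65) and was not called.

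Across the roles, the genes can be grouped by their depot calls. Of the 33, 15 were lower in brown fat in both genotypes: C1qa, C1qb, C1qc, C1ra, C1s1, C2, C4b, Cfb, Cfp, C6, Serping1, Cd55, F10, Procr and Plaur. Another 9 passed in controls but not in knockouts: F13a1, F2r, F5, F7, Plat, Plau, Pros1, Tfpi and Thbd. Cfi and F8 were lower in knockouts but not called in controls. The test of the difference between those contrasts called none of these genes, so none is shown to differ between genotypes. With normexp background correction the calls of F5, F7 and Plau in controls were lost (-0.76, -0.65 and -0.78), and with only the groups compared that of C1s1 in knockouts was (adjusted p = 0.0536). By cascade, 12 of 17 complement genes were lower in controls and 13 of 17 in knockouts. Of the 16 coagulation and fibrinolysis genes, 12 were lower in controls and 4 in knockouts. Among all features 14.3% and 13.9% were lower, and the cascades were not tested against each other. In bulk tissue, fewer cells of a type and less RNA per cell cannot be told apart.

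Markers of several cell types moved with the depots. For scale, 14.3% of all features were lower and 19.1% higher in brown fat in controls, and 13.9% and 16.7% in knockouts. Of 14 macrophage markers, 14 were lower in brown fat in controls and 9 in knockouts. Their list level was 0.99 to 1.67 in CTL_WAT, 0.15 to 0.88 in AdipoKO_WAT and -0.97 to -0.62 in the 8 brown fat samples. Of 10 fibroblast markers, 9 were lower in controls and 2 in knockouts, with levels of 0.28 to 1.80, -0.83 to 0.80 and -0.88 to 0.036. Of 9 measured mesothelial markers, 9 were lower in controls and 6 in knockouts, with levels of 3.24 to 5.04, -1.16 to 2.64 and -2.77 to -1.88. Of 10 B cell markers, 6 were lower in controls and 8 in knockouts, and of 12 T and NK cell markers, 5 and 10. Their levels were -1.29 to 5.17 and -1.08 to 4.07 in white fat and -2.25 to -1.23 and -1.73 to -0.54 in brown fat. Of 10 endothelial markers, 2 were higher in brown fat in controls, a share near the 19.1% of all features, and 5 in knockouts. All 9 brown adipocyte markers were higher in brown fat in both genotypes. Of 12 skeletal muscle markers, 12 were higher in brown fat, with levels of -1.06 to 5.13 there and -4.18 to -2.22 in white fat. Of 7 measured hepatocyte markers, 0 were higher in brown fat, and Ahsg and Cps1 were well above background on no brown fat array. The part of these cell types in the depot differences was not tested.

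The white fat knockout samples split over many of the genes. In knockouts 1-2 and 3, for example, F13a1, Thbd, Plat, Pros1, Serping1, Cd59a and C1s1 lay below all 4 controls, and in knockout 4 each lay at or above the lowest control. Without AdipoKO_WAT 4, 14 of the 33 genes were called lower, against 15.9% of all features, and 3 higher, against 20.8%, in a fit that left 2 knockout samples. The 14 were C1ra, C1s1, C3, Cd59a, F10, F13a1, F3, F5, Plat, Plau, Pros1, Serping1, Tfpi and Thbd, and the 3 were Cd55, Cfi and F8. F13a1 was then at -3.10 (adjusted p = 2.6e-04), Thbd at -2.51, Plat at -2.48 and Cd59a at -1.68. F10 was at -2.62 (adjusted p = 8.8e-04). The C1q chains were not called, at 0.026, -0.16 and 0.058. The difference between the knockout effects of the depots was called for 10 genes, 9 of them higher and F8 lower, against 16.2% of all features. The depot differences in knockouts of Cd59a, Cfi and F8 were then 2.68, -4.73 and -2.10.

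**Figure D4:**
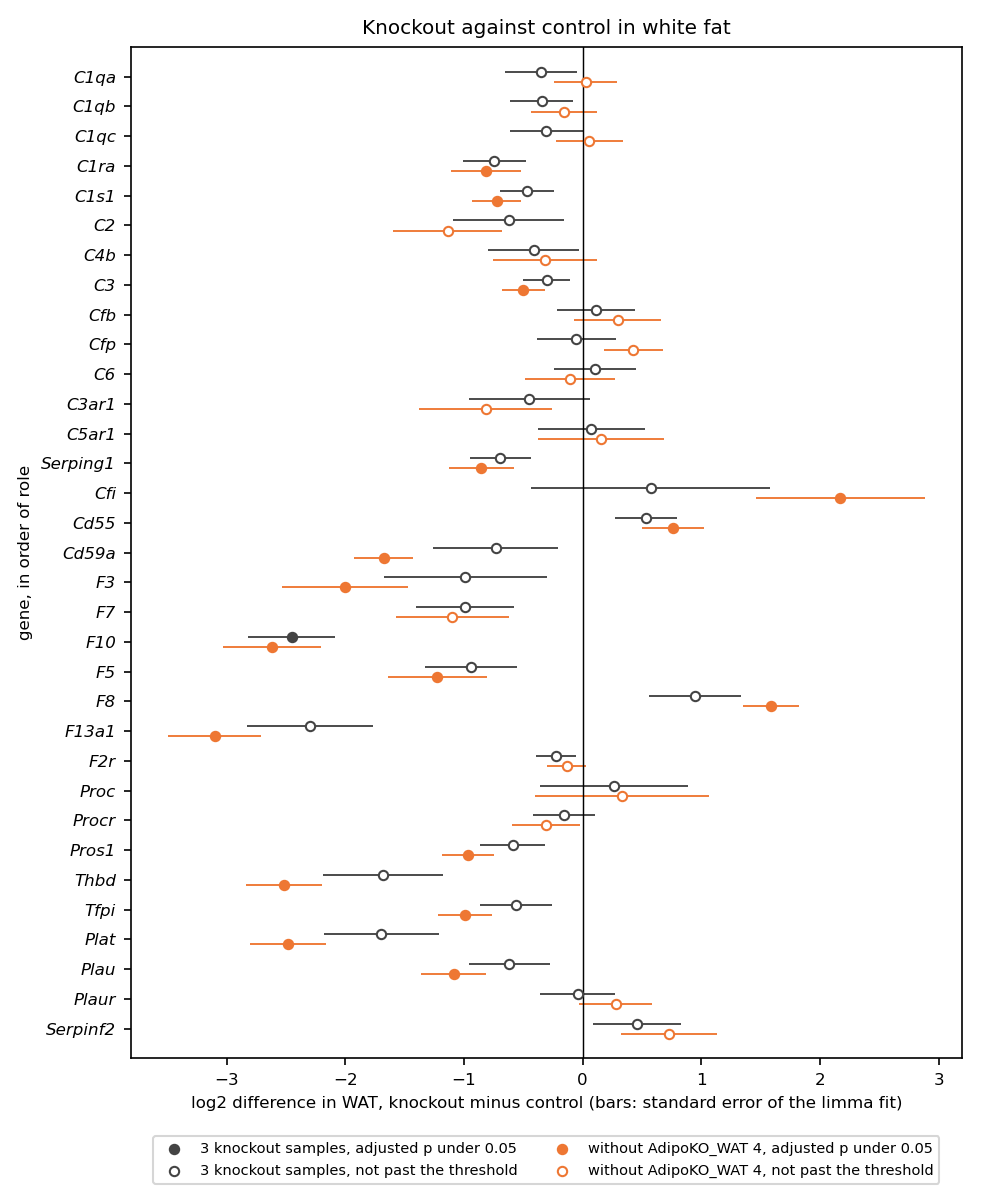
Log2 difference in white fat, knockout minus control, for each gene with the standard error of the limma fit, from all 3 knockout samples (grey) and without AdipoKO_WAT 4 (orange). Filled points passed the adjusted threshold: F10 is filled in grey, and 17 genes are filled in orange, 14 of them left of 0.

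Marker lists in the same samples differed as widely. Adipocyte marker levels were 0.15, 0.12, -0.29 and -0.47 in CTL_WAT and -2.30, -1.34 and 0.78 in AdipoKO_WAT. Fibroblast levels were 1.63, 1.80, 0.28 and 0.94 and -0.83, -0.82 and 0.80, and mesothelial levels 5.04, 3.997, 3.24 and 4.14 and -1.16, -0.012 and 2.64. Endothelial levels were -0.45, -0.18, -0.43 and -0.47 in CTL_WAT and -1.25, -1.03 and 0.35 in AdipoKO_WAT. The 2 knockouts with low Thbd, Plat and F13a1 had the lowest adipocyte, fibroblast, mesothelial and endothelial levels of white fat. B cell levels ran the other way, at -0.086, -0.47, 3.78 and 3.18 and 5.17, 4.88 and -1.29, and so did T and NK cell levels, at -0.17, -0.69, 2.89 and 2.17 and 4.07, 3.82 and -1.08. Cfi was low, at -5.65 and -5.95, in the 2 samples with the lowest B cell levels, CTL_WAT 2 and AdipoKO_WAT 4. In CTL_WAT 1, whose B cell level was -0.086, Cfi was at -2.32, the highest of the controls. Mast cell levels were 1.40, 1.31, 0.38 and 0.58 and -1.93, -1.34 and -0.02. For the mast cell, macrophage and mesothelial lists, as for F10, the controls were above all knockouts; the macrophage levels were 0.99 to 1.67 and 0.15 to 0.88. The part of these cells in the knockout differences was not tested. Leaving out CTL_WAT 1 and 4, which held intestinal transcripts, gave F10 a difference of -2.69 with an adjusted p of 0.178.

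**Figure D5:**
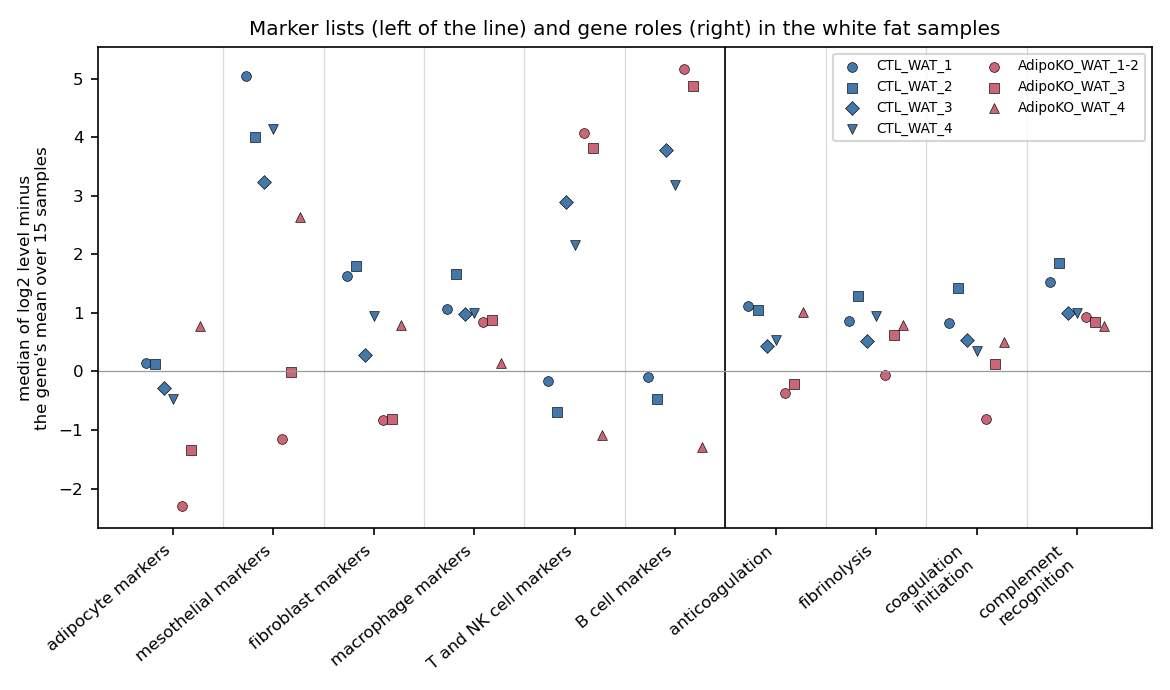
Levels of 6 marker lists (left of the line) and 4 roles of the genes described (right) in the 7 white fat samples, each the median over the list's genes of the log2 level minus the gene's mean over 15 samples. Blue marks controls and red knockouts; AdipoKO_WAT 4 is the red triangle, above the other 2 knockouts for adipocyte, mesothelial and fibroblast markers and below them for B and T cell markers.

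In brown fat none of the 33 genes was called between genotypes. Of these, 26 had a difference above 0 and 7 below, with a median of 0.20, where all features had a median of 0.10 and 60.2% of them lay above 0. With median scaling 19 were above 0 and 14 below, with medians of 0.058 for the 33 genes and -0.043 for all features. No gene had separate groups, where 9.35% of all features were separate upwards and 8.62% downwards. Fitted differences were -0.61 ± 0.63 (SE) for F3 and 0.56 ± 0.44 (SE) for C2. Proc and F7 were well above background on at most 2 of 4 arrays in either brown fat group, so no size is given for them. For C1qa the difference was -0.001 ± 0.28 (SE). The fitted F10 difference was -0.0017 ± 0.34 (SE). Only 2 of 4 AdipoKO_BAT arrays were well above background for F10, so this value does not measure an absence of change. Endothelial marker levels were 1.22, 0.95, 0.21 and 0.28 in AdipoKO_BAT 1 to 4 and 0.013, 0.15, 0.029 and 0.082 in CTL_BAT. Skeletal muscle levels were 2.56, 5.13, 5.05 and 2.41 in AdipoKO_BAT and 2.36, 2.97, 2.29 and -1.06 in CTL_BAT. Their part in these differences was not tested.

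Other genes of the cascades were listed as well, 79 in all, of which 65 were measured above the filter: 32 of complement, 21 of coagulation and 12 of fibrinolysis. In the knockout comparisons 0 of 65 were called in either depot (limma). At an unadjusted p under 0.05 there were 15, or 23.1%, in white fat, where 17.9% of all features were, and 1, or 1.54%, in brown fat, where 13.1% were. Between depots 20 were lower and 9 higher in brown fat in controls, and 21 lower and 8 higher in knockouts. Among all features 14.3% were lower and 19.1% higher in controls, and 13.9% lower and 16.7% higher in knockouts. The median differences of the 65 genes were -0.37 and -0.30.

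Several of the other genes were much higher in brown fat. Kng1, the gene of kininogen, was higher by 5.99 ± 0.31 (SE) in controls and 6.40 ± 0.34 (SE) in knockouts, where it was well above background on 2 of 4 white fat arrays. Cpn2, a subunit of carboxypeptidase N, which trims anaphylatoxins, was higher by 6.72 ± 0.39 (SE) and 5.73 ± 0.42 (SE). C8g, the gamma chain of C8, was higher by 3.21 ± 0.33 (SE) in knockouts, and C1qbp, which encodes a mitochondrial protein that binds C1q, by 1.18 ± 0.13 (SE) in controls. Kng1 was at 2.74, 1.64, 2.15 and 2.40 in CTL_BAT and at -3.37, -3.28, -4.25 and -4.12 in CTL_WAT, with no overlap.

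The genes lowest in brown fat by adjusted p included collectins and an inhibitor. Colec12, a scavenger receptor with a collectin domain, had a difference of -3.27 ± 0.27 (SE) in controls. Serpinb2, an inhibitor of urokinase, was at least 12.9-fold lower (adjusted p = 5.3e-06). In knockouts the 3 smallest adjusted p among lower genes were those of Colec11, a lectin pathway collectin (-2.19 ± 0.23 SE), Fcna, a ficolin (-2.95 ± 0.41 SE), and Clu, clusterin (-4.06 ± 0.58 SE). In white fat Serpinb2 also had the smallest adjusted p of the 65 in the knockout comparison: it was at -1.36, -0.41, -1.84 and -1.43 in CTL_WAT and at -6.49, -4.01 and -3.47 in AdipoKO_WAT, and it did not pass (adjusted p = 0.0643). It was well above background on 2 of 4 AdipoKO_WAT arrays, and its level in knockout 1-2 was under the dimmest signal so counted there (-5.29 and -5.65), so no size is given.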

How the data were processed

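RNA of 16 adipose tissue samples was read on one-colour Agilent arrays, per the labels. The processed signal, extracted by the authors with Agilent Feature Extraction 12.0.0.7, is an intensity with background subtracted and no scaling across arrays, as the file headers record. Flag columns, of another kind, were deposited as 0 or 1. Values in the deposited table are intensity too, equal to the mean processed signal of a probe within a relative tolerance of 1e-04.

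Here spots flagged as outliers or non-uniform were dropped (55 to 115 per array) and repeated spots averaged. The level was the log2 of this deposited intensity less its 75th percentile on that array (range 298 to 1035). Of 41174 probes, 28223 were named by matching the accession to RefSeq (GRCm38.p6), and 12951 were tested unnamed. A probe was kept when well above background on at least 3 of 4 arrays of a group; 66.7% to 83.6% of probes were so on an array. The brightest probe stood for a gene, which left 25105 features. Levels of different probes were not compared. The number of arrays limits the precision.

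Group means of the 15 samples were compared in 1 linear model (limma 3.58.1, functions lmFit and eBayes, R 4.3.3; 11 residual degrees of freedom and a prior of 2.65). Two-sided p-values were adjusted by Benjamini-Hochberg within each comparison, over every feature, and called at 0.05. The procedure was tested on simulated data. The code used Python 3.11.15 with pandas 2.3.3.

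The 34 genes, the marker lists and the other pathway lists were chosen with earlier results of these data known. Values in every sample are given for genes called between genotypes and, in each of 6 roles, for the 2 genes with the smallest p in each depot's knockout comparison, and for up to 3 genes each way called between depots in both genotypes; others were named as part of the set, and Cd59a, Cfi, F8, F3, C1qa and Kng1 were given by sample after their values were seen. Other pathway genes were named when called between genotypes, or among the 3 smallest adjusted p each way between depots, except a gene that is not reported here; Serpinb2 in white fat was named after its values were seen. The normexp alternative (offset 50) used the median signal and median background, deposited as intensity, in place of the mean signal that was planned. Other alternatives were quantile and median scaling, 2 other filters on dim probes, the mean of a gene's probes, all spots kept, the value table, 16 separate arrays, only the groups compared, a slide or replicate block, and leaving out samples.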

Additional observations from a re-analysis of the deposited data

Results flagged for a closer look

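In 99 groups of 4 samples (33 genes in 3 groups) 6 held a sample whose gap to the next value passed Dixon's critical value for 4 samples, 0.829, where chance flags about 1 in 20 groups. C4b was 1.79 in CTL_BAT 4, above the other 3 brown fat controls. Cfi was -5.65 in CTL_WAT 2, below the other 3 white fat controls. Cd55 was 0.53 in CTL_WAT 1, the lowest of its group. Cd59a was 3.96 in AdipoKO_BAT 3, the lowest of a group whose other values were 4.09. Plau was -2.90 in AdipoKO_BAT 1, the highest of its group. Serpinf2 was -5.33 in CTL_BAT 2, the lowest of its group, near the level at which spots stop being well above background.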

How the results depend on the processing

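Alternatives kept the depot result: genes lower in brown fat numbered 21 to 27 in controls and 14 to 19 in knockouts (27 and 19 with quantile scaling, 19 also without AdipoKO_BAT 1), and 0 genes were called in brown fat between genotypes under all 29. Genes called lower in white fat knockouts (1 as reported) numbered 0 with normexp, with only the groups compared, with the slide block and without both CTL_WAT samples that held intestinal transcripts, 2 with 16 separate arrays, and 0 to 14 with 1 sample left out; genes called higher numbered 0 to 3. The difference between the depots' knockout effects was called higher for 0 to 9 genes and lower for 0 to 1 with 1 sample left out. Genes higher in brown fat in controls numbered 2 with only the groups compared and 0 to 1 with 1 sample left out. In knockouts they numbered 0 with normexp, with only the groups compared and without both AdipoKO_BAT samples with the lowest percentiles, and 0 to 3 with 1 sample left out. The high ends of the ranges for 1 sample left out, from the white fat knockout calls on, came without AdipoKO_WAT 4; the cause was not tested. Nr3c1 in brown fat was called with 16 separate arrays (-1.03, adjusted p = 0.0490) and ranged from -1.13 to -0.96 with 1 sample left out, with calls without AdipoKO_WAT 4 (-1.03) and AdipoKO_BAT 4 (-1.13); in white fat it was -0.25 with the mean of the gene's probes (adjusted p = 0.548), ranged from -0.74 to -0.53 with 1 sample left out and was called without AdipoKO_WAT 4 (-0.69, adjusted p = 0.0223). The label numbers were not treated as pairs: of 18 same-numbered pairs across groups, 8 had a correlation of deviations above 0.1 (range -0.42 to 0.31, 25071 features). With the replicate block F10 in white fat was -2.41 (adjusted p = 0.142), so 0 genes were called there. Median and quantile scaling moved the median of all features in white fat from 0.24 to 0.11 and 0.11, and that of the 33 genes from -0.41 to -0.55 and -0.48. The higher share of all calls in white fat was 33.3% as reported and 18.0% and 12.5% under these.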
